A study of Mus musculus with 8 samples.

Results

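Very broad promoter clusters of mouse facial skin are the groups of transcription start sites that carried a gene symbol and spanned 150 bp or more from the first to the last base listed. They were found in a table of start-site clusters made by cap analysis of gene expression (CAGE), a method that reads RNA from its cap and so marks where transcription began. Of 84475 distinct clusters in the table, 46376 carried a gene symbol, and 4831 of these were very broad (10.4%, 95% Wilson interval 10.1 to 10.7). They belonged to 4743 of the 16094 genes with any cluster (29.5%, 28.8 to 30.2). Named clusters of 10 to 49 bp, of which there were 7134 from 5245 genes, were the comparison. Both kinds of cluster were present at 1490 genes, which were 31.4% of the genes with a very broad cluster and 28.4% of those with a narrower one. All intervals below are 95% Wilson intervals of a share and cover counting error only, since clusters of 1 gene and genes of 1 family are not independent.

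The study took facial skin from 8 C57BL/6 mice at postnatal day 28. In 4 of them both copies of Ikk2 were floxed and cre was present (the genotype label reads Nectin-cre(+);Ikk2FL/FL, whereas the series text writes Nestin-cre), and their skin was lesional. The other 4 were labelled Control, and their skin was non-lesional. Ikk2, whose symbol is Ikbkb, encodes the kinase subunit that releases NF-kB from its inhibitors, and a cre under the nestin promoter deletes only in cells in which that promoter is or was active. Whole skin mixes epidermis, hair follicle, dermis, fat, muscle and immune cells. The clusters were listed once for the whole series, and the names of the 8 columns of values matched no sample label. Columns without a known sample were not used in any step. Level, evenness over libraries and lesional against control skin were not analysed here, and every result concerns which clusters and genes were very broad, where they lay and what their promoters held. The depth of the libraries and the exon, intron or UTR in which a cluster lay were likewise not analysed.

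Mammalian promoters are commonly described by the shape of their start sites. Sharp promoters begin transcription at a dominant position, often a fixed distance downstream of a TATA box, and are known from tissue-specific and inducible genes. Broad promoters begin it at many positions, mostly within CpG islands, and are known from genes used in most cells. A span is a coarse measure of shape, because it does not say how evenly the tags are spread within it. It can also depend on how many tags a cluster drew, which was not analysed.

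Annotated promoters of very broad and of narrow genes are printed first, because their letters show the range of sequence found at genes of the same width. Each is the 200 bases before the annotated start from RefSeq (build GRCm38.p6), 5′ to 3′ on the gene's strand, with CpG dinucleotides and a TATAAA lying 20 to 40 bases before the start in capitals. The cluster table uses build mm9, so whether a cluster lay at the start shown is not known. Usp7 (chr16:8738343-8738542 on the minus strand), a deubiquitinase, had a cluster of 227 bp, 44 CpG dinucleotides in the stretch and no TATAAA.
Usp7: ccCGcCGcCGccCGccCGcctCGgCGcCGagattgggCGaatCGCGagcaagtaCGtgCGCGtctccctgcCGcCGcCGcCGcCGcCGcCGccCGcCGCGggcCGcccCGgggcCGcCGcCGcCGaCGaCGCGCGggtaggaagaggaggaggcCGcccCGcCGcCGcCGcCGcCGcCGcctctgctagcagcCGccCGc
Smarca2 (chr19:26604960-26605159 on the plus strand), an ATPase of SWI/SNF chromatin remodelling, had a cluster of 208 bp and 23 CpG dinucleotides.
Smarca2: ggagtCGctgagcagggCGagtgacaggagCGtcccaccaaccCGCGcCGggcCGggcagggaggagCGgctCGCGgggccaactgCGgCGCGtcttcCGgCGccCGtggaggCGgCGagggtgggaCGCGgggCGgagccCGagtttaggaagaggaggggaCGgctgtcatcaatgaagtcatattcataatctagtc
Birc3 (chr9:7873171-7873370 on the minus strand), an inhibitor of apoptosis in the NF-kB pathway, had the widest cluster of all at 349 bp and only 6 CpG dinucleotides.
Birc3: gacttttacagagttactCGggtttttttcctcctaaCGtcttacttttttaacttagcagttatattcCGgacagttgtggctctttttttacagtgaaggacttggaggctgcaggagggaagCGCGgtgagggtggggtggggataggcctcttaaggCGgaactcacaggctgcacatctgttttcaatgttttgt
Col6a3 (chr1:90843972-90844171 on the minus strand), a chain of type VI collagen, had a cluster of 221 bp and 2 CpG dinucleotides.
Col6a3: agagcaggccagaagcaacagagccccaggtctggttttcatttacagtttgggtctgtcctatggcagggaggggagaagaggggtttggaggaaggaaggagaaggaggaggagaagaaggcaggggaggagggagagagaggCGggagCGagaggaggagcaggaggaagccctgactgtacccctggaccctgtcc
Krt71 (chr15:101743098-101743297 on the minus strand), a keratin of the inner root sheath of hair, had a cluster of 202 bp, 2 CpG dinucleotides and a TATAAA that began 40 bases before the start, at the edge of the window.
Krt71: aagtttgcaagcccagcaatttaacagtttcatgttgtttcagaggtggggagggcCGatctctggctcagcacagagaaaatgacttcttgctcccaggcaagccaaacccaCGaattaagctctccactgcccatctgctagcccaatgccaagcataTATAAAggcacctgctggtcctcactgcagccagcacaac
Cpa3 (chr3:20242182-20242381 on the minus strand), the carboxypeptidase of mast cells, had a cluster of 208 bp, 3 CpG dinucleotides and a TATAAA at 31 bases.
Cpa3: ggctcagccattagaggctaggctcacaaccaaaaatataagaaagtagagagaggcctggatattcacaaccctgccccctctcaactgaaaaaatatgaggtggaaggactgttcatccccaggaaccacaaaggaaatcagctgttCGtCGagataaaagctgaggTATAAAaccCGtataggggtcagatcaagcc

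Narrow genes of the same tissue stand beside them. Lor (chr3:92083143-92083342 on the minus strand), the main protein of the cornified envelope, had a single cluster of 10 bp, no CpG dinucleotide and a TATAAA 27 bases before the start.
Lor: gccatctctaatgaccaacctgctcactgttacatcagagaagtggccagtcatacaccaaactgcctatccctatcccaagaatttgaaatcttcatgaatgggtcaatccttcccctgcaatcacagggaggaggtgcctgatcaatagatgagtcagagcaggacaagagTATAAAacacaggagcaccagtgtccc
Krt34 (chr11:100041555-100041754 on the minus strand), a keratin of the hair shaft, had a widest cluster of 16 bp and a TATAAA at 31 bases.
Krt34: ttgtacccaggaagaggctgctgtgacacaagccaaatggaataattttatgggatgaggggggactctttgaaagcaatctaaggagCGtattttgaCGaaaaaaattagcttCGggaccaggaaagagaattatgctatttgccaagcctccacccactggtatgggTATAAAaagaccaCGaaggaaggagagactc
Krtap4-1 (chr11:99628240-99628439 on the minus strand), which cross-links hair keratins, had a widest cluster of 14 bp and a TATAAA at 31 bases.
Krtap4-1: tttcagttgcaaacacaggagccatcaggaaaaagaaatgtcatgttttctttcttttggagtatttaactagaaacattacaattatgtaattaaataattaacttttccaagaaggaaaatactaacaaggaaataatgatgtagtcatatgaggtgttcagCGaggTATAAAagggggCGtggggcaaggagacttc
These 3 narrow examples were chosen after their values were seen, and they do not stand for narrow genes at large. Of genes with a cluster of 10 to 49 bp and none very broad, 63.4% were CpG-rich and 4.89% had a TATAAA. That set includes genes with a wider cluster below the threshold. Where the widest cluster was 10 to 49 bp, 38.9% were CpG-rich and 9.01% had a TATAAA. Only 79.8% of the latter genes had a promoter in the table, short of the 80% set as the least. The very broad examples ran from CpG dense to CpG poor, and Krt71 and Cpa3 held a TATA box as well.

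Genes with a very broad cluster were protein-coding more often than those with a narrower one. RefSeq classed 95.3% of them (4522 of 4743, 94.7 to 95.9) as protein-coding, against 85.2% (84.2 to 86.1) of the genes with a cluster of 10 to 49 bp. Long non-coding RNAs made up 1.24% against 3.37%, and pseudogenes 0.717% against 5.45%. Predicted genes with a Gm symbol made up 1.43% against 8.87%, whereas cDNA-derived Rik symbols were almost as common in both sets (4.79% against 5.41%). Over all genes with a cluster, 86.3% were protein-coding, 3.75% long non-coding RNAs, 4.43% pseudogenes, 7.80% Gm symbols and 6.85% Rik symbols. Rik symbols were thus less common in both sets than over all genes. Read the other way, 32.6% of protein-coding genes with a cluster had a very broad one, against 9.77% of long non-coding RNAs (59 of 604) and 4.77% of pseudogenes (34 of 713). Clusters that carried no gene symbol reached 150 bp in 1.78% of cases (677 of 38099).

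The widest clusters of genes outside the protein-coding class were those of the microRNA mmu-mir-1907 (237 bp), the long non-coding RNA E130307A14Rik (232 bp), BC039771 (228 bp) and 6430590A07Rik (226 bp). The microRNA shared its cluster with another gene, so the start sites cannot be given to the small RNA. A cluster of 209 bp on chromosome 6 (41493156 to 41493365, plus strand) carried 8 symbols at once, among them Trbd2 and 6 joining segments of the T cell receptor beta locus. Such sharing was rare, with 82 very broad clusters (1.70%) and 155 clusters of 10 to 49 bp (2.17%) given to 2 or more genes. Of 12 nuclear long non-coding RNAs and snoRNA hosts with a cluster, 3 were very broad, namely Neat1, the scaffold RNA of paraspeckles (201 bp), Xist, the RNA of X inactivation (187 bp), and Malat1 of nuclear speckles (167 bp).

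Spans, which chose the members and are given here as a description, lay close together. Their median was 182 bp, with quartiles of 166 and 196 bp. Below 200 bp lay 3943 clusters (81.6%), from there to under 250 bp lay 846 (17.5%), and 42 (0.869%) reached 250 bp or more. Counts per 10 bp rose from 709 at 160 to 169 bp to 950 at 190 to 199 bp and then dropped to 500 at 200 to 209 bp and 198 at 210 to 219 bp. Most of the drop came within 3 neighbouring values, with 124 clusters of 199 bp, 96 of 200 bp and 58 of 201 bp. The method that grouped the start sites is not given in the sources used here, and its part in this break was not tested. At the threshold itself there was no step, with 80 named clusters of 150 bp and 70 that were 1 bp narrower, among them those of Abhd12 and the muscle actinin Actn3.

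**Figure D1:**
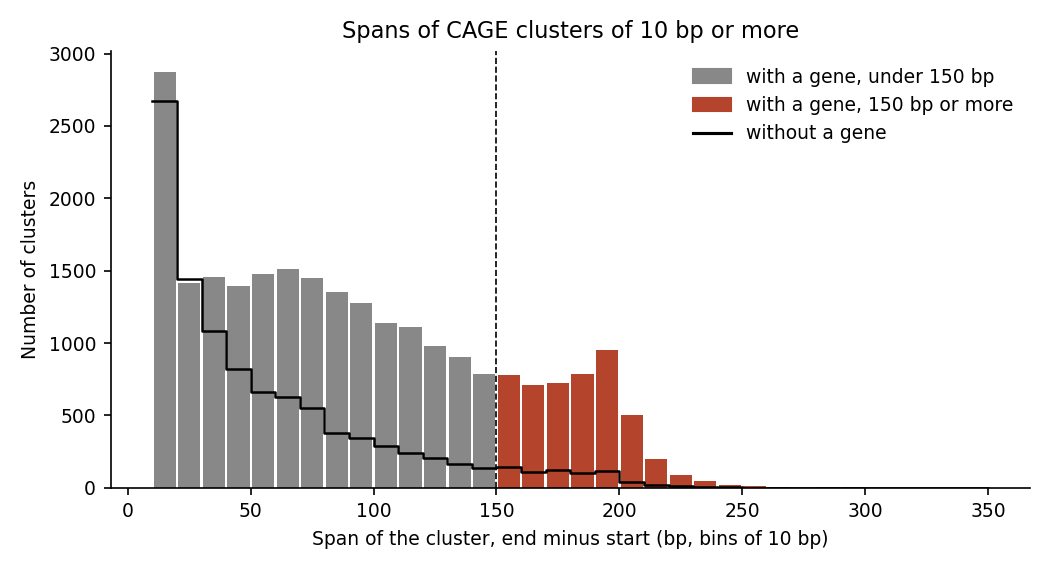
Number of clusters (y axis) by span in bins of 10 bp (x axis) for all clusters of 10 bp or more; bars are clusters with a gene symbol, red from 150 bp on, and the black line is clusters without one. Named clusters rise again to 950 at 190 to 199 bp and drop to 500 in the next bin.

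The widest cluster was that of Birc3 on the minus strand of chromosome 9 (7872844 to 7873193, mm9), at 349 bp. Lepr, the leptin receptor, followed at 323 bp (chromosome 4, 101390191 to 101390514) and Lamc1, the gamma chain of laminins in basement membranes, at 319 bp (chromosome 1, 155179845 to 155180164). Hebp2, a heme-binding protein, spanned 312 bp, and the ubiquitin ligase Znrf2 301 bp. Below them came the actin regulator Nckap1 (299 bp), the Ras GTPase activator Dab2ip (298 bp), the imprinted G protein gene Gnas (298 bp), the cleavage factor Cpsf7 (297 bp) and the chromatin remodeller Atrx (292 bp). Further ones among the widest 20 were 2200002D01Rik (290 bp), Ube2q2 (282 bp), the fatty acid ligase Acsl4 (281 bp), the kinesin Kif26b and the Wnt co-receptor Ryk (280 bp each), Amotl1 (274 bp), Lrrc49 (272 bp), Vmp1 of autophagy (266 bp) and Dram2 (264 bp), the last tied with Sh3bgrl2. No keratin or chemokine was among them. With 7 epidermal and stress keratins and 5 chemokine ligands among the 4743 genes, their absence from 20 genes says little.

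The members were then read against 39 lists of genes grouped by role, which together held 504 of the 4743 genes with a very broad cluster. For each list the share is of its genes with any cluster, beside 29.5% of all genes and 32.6% of protein-coding ones. Section by section the share was 39.9% in the lists of dermis and deeper tissue (55 of 138, 32.1 to 48.2) and 34.7% in housekeeping (201 of 580, 30.9 to 38.6). It was 34.2% in epidermis and hair (66 of 193, 27.9 to 41.1) and 32.9% in regulators (152 of 462, 28.8 to 37.3). Immune genes had 18.6% (32 of 172, 13.5 to 25.1). Each of these intervals but that of immune genes held the 32.6% of protein-coding genes. The median span of a gene's widest cluster was 110 bp over all genes, 129 bp in housekeeping lists, 109 bp in those of epidermis and hair and 75.5 bp in immune lists. A list's side of the all-gene share depended on the threshold. With 25 lists above and 14 below at 150 bp, 33 kept their side at 120 bp, 26 at 200 bp and 23 at both. Whether the level of the listed genes bore on these shares was not tested.

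**Figure D2:**
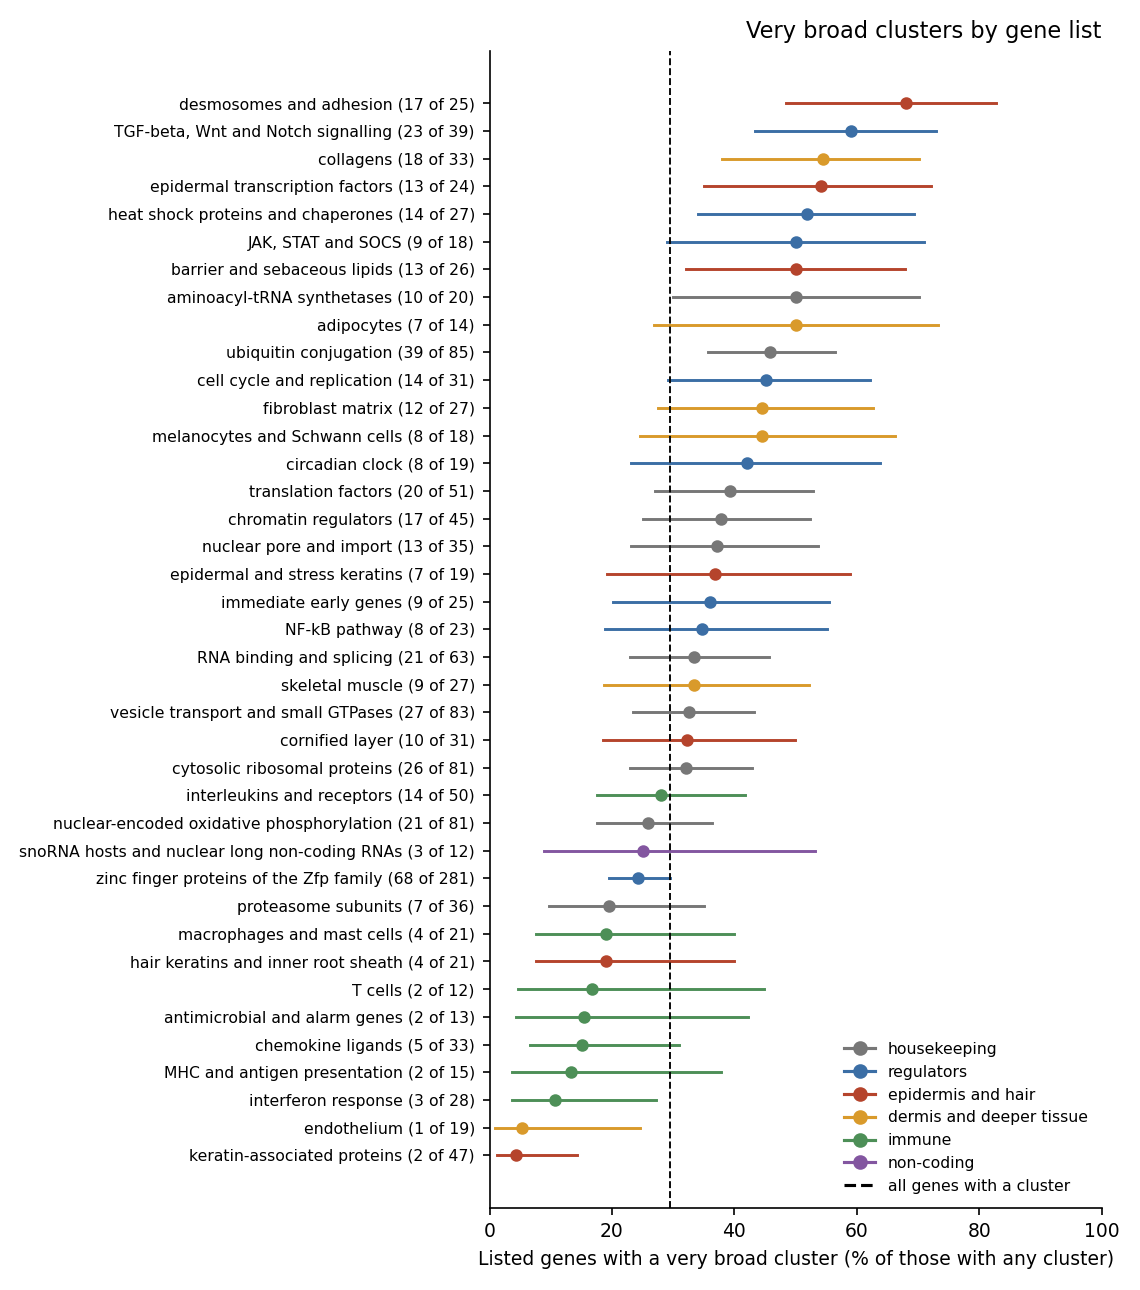
Share of listed genes with a very broad cluster (x axis, % of the list's genes with any cluster) for each of the 39 lists (y axis, with counts), coloured by section; points are shares, lines 95% Wilson intervals and the dashed line all genes with a cluster. Desmosomes and adhesion stand highest at 68.0% and keratin-associated proteins lowest at 4.26%.

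The kinase gene targeted in the model was no member. Ikbkb had a widest cluster of 81 bp (chromosome 8, 23816986 to 23817067) and 2 further ones of 2 and 3 bp, and Nes, which encodes nestin, had a single cluster of 124 bp (chromosome 3, 87774995 to 87775119). Around them, 8 of 23 NF-kB pathway genes (34.8%) had a very broad cluster, a share near that of protein-coding genes. They were Chuk, the other kinase of the complex, at 181 bp, Birc3 at 349 bp, the deubiquitinase Tnfaip3 at 200 bp, its partner Tnip1 at 198 bp, the adaptor Traf3 at 194 bp, the atypical inhibitors Bcl3 at 162 bp and Nfkbiz at 158 bp, and the deubiquitinase Cyld at exactly 150 bp. Other adaptors and inhibitors of the list were narrower, with Traf2 at 126 bp, Nfkbib at 95 bp, Nfkbie at 73 bp and Traf1 at 72 bp. The NF-kB subunits were narrower too, with Nfkb1 at 132 bp, Nfkb2 at 112 bp, Relb at 82 bp, Rela at 79 bp and Rel at 78 bp. The inhibitor Nfkbia lay 1 bp under the threshold.

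Among JAK, STAT and SOCS genes 9 of 18 were very broad, led by the feedback inhibitor Socs5 (207 bp), Stat6 of the interleukin-4 response (204 bp), Stat5a (202 bp), the kinase Jak1 (199 bp), Socs6 (190 bp) and Stat3 (181 bp). Socs1 and Socs3, also feedback inhibitors, spanned 42 and 75 bp. Interleukins and their receptors had 14 very broad genes of 50 (28.0%, beside 29.5% of all genes), of which the widest were the receptors Il11ra1 (231 bp), Il17rc (207 bp), Il22ra1 (205 bp), Il1r1 (203 bp), Il12rb2 (201 bp) and Il6ra (189 bp). Il13ra1 (185 bp) and Il4ra (174 bp), which form a receptor upstream of Stat6, were members, and the ligands Il15 and Il34 (175 bp each) were too. Both receptors and ligands were among the narrower genes of the list. The receptors Il7r (57 bp), Il2rb (37 bp), Il10ra (29 bp), Il1rl1 (13 bp), Il31ra (6 bp), Il2ra (4 bp), Il18rap (3 bp) and Il21r (2 bp) were far under the threshold, as were the ligands Il33 (77 bp) and Il4 (4 bp).

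Chemokine ligands were seldom very broad, with 5 of 33 (15.2%, and a median widest span of 13 bp). The members were platelet factor Pf4 (191 bp), Ccl6 (187 bp), Cxcl14, which skin epithelium makes constitutively (186 bp), Cxcl12 (159 bp) and the eotaxin Ccl11, an attractant of eosinophils (156 bp). Ccl2 (14 bp), Cxcl10 (13 bp), Ccl20 (8 bp) and Ccl17 (2 bp) were all narrow. Interferon-response genes had 3 of 28 (10.7%), among them Ifitm1 (178 bp) and the peptide transporter Tap1 (156 bp), whereas Ifit1 spanned 14 bp and Isg15 67 bp. Of the markers of cell types, T cells gave 2 of 12 (Cd3e, 197 bp, and the pan-leukocyte Ptprc, 188 bp). Macrophages and mast cells gave 4 of 21 (Cpa3 208 bp, C1qb 199 bp, Kit 153 bp and Cd68 151 bp). The list of MHC and antigen presentation gave 2 of 15, the epithelial adhesion molecule Epcam (186 bp) and Cd83 (177 bp). Antimicrobial and alarm genes gave 2 of 13, S100a7a at 206 bp and the defensin Defb1 at 169 bp.

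Adhesion genes, signalling pathway genes and epidermal transcription factors stood at the other end. Among desmosome and adhesion genes 17 of 25 (68.0%, 48.4 to 82.8) were very broad, with the desmogleins Dsg3 (249 bp) and Dsg2 (216 bp), the desmosomal tetraspan protein Perp (216 bp), the laminin chain Lama3 (203 bp), the integrin Itga3 (199 bp) and plakophilin Pkp3 (194 bp). TGF-beta, Wnt and Notch signalling gave 23 of 39 (59.0%), from the transducer Smad1 (230 bp) and the Wnt receptors Fzd1 (222 bp) and Fzd2 (206 bp) to beta-catenin (Ctnnb1, 208 bp), the ligand Wnt3 (205 bp) and the kinase Gsk3b (202 bp). Epidermal transcription factors gave 13 of 24 (54.2%), among them Grhl1 (237 bp) and Grhl3 (200 bp) of barrier formation, Ets1 (206 bp), Lhx2 of hair stem cells (197 bp) and Trp63, the regulator of stratified epithelium (196 bp). Barrier and sebaceous lipid genes gave 13 of 26, with Sgms1 (211 bp), Elovl4 (209 bp), the lipid transporter Abca12 (205 bp), Elovl1 (203 bp), Dgat1 (202 bp) and Fa2h (197 bp).

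Among structural genes of keratinocytes the share differed by list. Epidermal and stress keratins had 7 of 19 (36.8%, 19.1 to 59.0), an interval that held the 32.6% of protein-coding genes. They included the basal keratin Krt14 (191 bp) and the suprabasal pair Krt1 (160 bp) and Krt10 (158 bp). Krt77 (193 bp), Krt79 (183 bp) and the stress keratin Krt17 (163 bp) were members too. Most keratins of the list were narrower, among them Krt6b (141 bp), Krt5 (140 bp), Krt16 (63 bp), Krt6a (52 bp), Krt8 (10 bp) and Krt2 (4 bp). Hair keratins and inner root sheath genes had 4 of 21, which were Krt71 (202 bp), Krt27 (191 bp), Krt86 (184 bp) and the deiminase Padi3 (155 bp). Keratin-associated proteins had 2 of 47 (4.26%), Krtap27-1 at 236 bp and Krtap13-1 at 171 bp, and a median widest span of 15 bp. Cornified-layer genes had 10 of 31 (32.3%), among them adhesion proteins and enzymes such as Dsg1a (197 bp), Casp14 (188 bp), the protease Asprv1 (184 bp), Dsc1 (174 bp) and the transglutaminases Tgm1 and Tgm5 (166 bp each), with the filaggrin relative Hrnr at 169 bp. Lor (10 bp), Ivl (27 bp) and Flg (14 bp), the best known proteins of that layer, were narrow.

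In the dermis and below, collagens had 18 of 33 (54.5%) and a median widest span of 155 bp. Col6a3 (221 bp), both chains of type I collagen (Col1a2, 219 bp, and Col1a1, 195 bp), Col18a1 (200 bp), Col11a1 (199 bp) and Col5a3 (194 bp) led them. Fibroblast matrix genes had 12 of 27 (44.4%), with the receptor Pdgfrb (215 bp), Fbln1 (209 bp) and decorin (Dcn, 196 bp) among the widest. Adipocyte genes had 7 of 14, from the lipid-droplet protein Plin4 (215 bp) and the fatty acid carrier Fabp4 (210 bp) to Lipe (169 bp). Skeletal muscle had 9 of 27 (33.3%), led by creatine kinase Ckm (206 bp), the fast myosin Myh2 (205 bp) and Tpm2 (200 bp). Melanocyte and Schwann cell genes had 8 of 18, among them tyrosinase (Tyr, 194 bp) and the myelin gene Mbp (185 bp). Endothelium had Eng (171 bp) as the only member of 19 (5.26%, upper bound 24.6%), while Cdh5 and Pecam1 lay at 106 and 104 bp.

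Among housekeeping lists, the interval of ubiquitin conjugation lay above the 32.6% of protein-coding genes, and those of the other 9 held it. Ubiquitin conjugation gave 39 of 85 (45.9%, 35.7 to 56.4), led by the conjugating enzyme Ube2q2 (282 bp) and the deubiquitinases Usp7 (227 bp) and Usp48 (216 bp). Aminoacyl-tRNA synthetases gave 10 of 20, among them Tars (200 bp) and Yars (198 bp). Translation factors gave 20 of 51 (39.2%), with the cap-binding protein Eif4e (210 bp) and the elongation factor Eef1g (206 bp). Chromatin regulators gave 17 of 45 (37.8%), with Smarca2 (208 bp), the DNA demethylating enzyme Tet2 (206 bp) and Arid1a (199 bp). Nuclear pore and import genes gave 13 of 35 (37.1%), splicing and RNA-binding proteins 21 of 63 (33.3%), vesicle transport 27 of 83 (32.5%) and cytosolic ribosomal proteins 26 of 81 (32.1%), the last led by Rpl22 (217 bp) and Rps28 (213 bp). Oxidative phosphorylation gave 21 of 81 (25.9%, 17.6 to 36.4) and proteasome subunits 7 of 36 (19.4%, 9.75 to 35.0), with Ndufa6 (201 bp) and Psma3 (195 bp) their widest members. No test of a difference between lists was made.

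Among the remaining regulators, heat shock proteins and chaperones gave 14 of 27 (51.9%), with the endoplasmic reticulum chaperone Hsp90b1 (242 bp) and Hspb8 (208 bp) the widest. Cell cycle and replication genes gave 14 of 31 (45.2%), among them the cyclins Ccnd3 and Ccne1 (196 bp each), and circadian clock genes 8 of 19 (42.1%), led by Nr1d2 (196 bp). Immediate early genes gave 9 of 25 (36.0%), with Jund (197 bp), Btg2 (191 bp) and Klf6 (185 bp). The large Zfp family of zinc finger proteins gave 68 of 281 (24.2%), its widest being Zfp142 (260 bp) and Zfp62 (234 bp).

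Promoters of very broad genes were CpG-rich more often than those of narrower genes, but 811 were not. A RefSeq promoter, 250 bases before to 50 after an annotated start, was found for 3618 of 4383 protein-coding genes with a very broad cluster (82.5%) and for 3575 of 4353 with a cluster of 10 to 49 bp (82.1%). A promoter was called CpG-rich when its GC content was at least 50% and its CpG count was at least 0.6 of that expected from its C and G. By that measure 77.6% of the very broad genes (2807 of 3618, 76.2 to 78.9) had a CpG-rich promoter, against 69.1% (67.6 to 70.6) of genes with a cluster of 10 to 49 bp, 63.4% (61.5 to 65.3) of those that had no very broad cluster besides, and 68.3% of all 11060 genes with a cluster and a promoter. Counted singly, 33.5% of all 32851 promoters in the table were CpG-rich. The median ratio of observed to expected CpG was 0.771 (quartiles 0.588 and 0.918) in very broad genes, 0.704 (0.438 and 0.877) in genes with a cluster of 10 to 49 bp and none very broad, and 0.384 in the whole table.

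**Figure D3:**
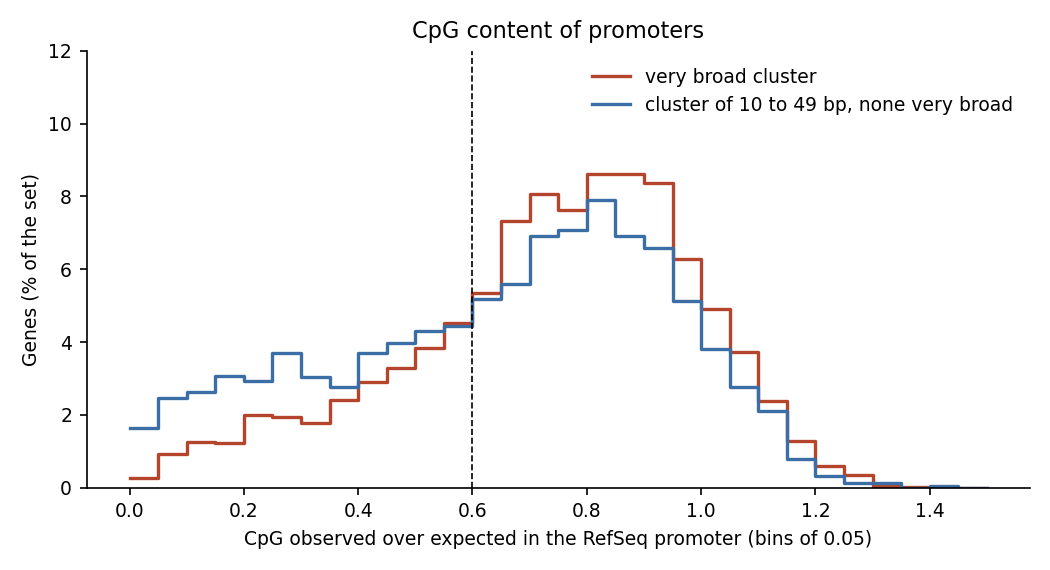
Share of genes (y axis, % of each set) by the ratio of observed to expected CpG in the RefSeq promoter (x axis, bins of 0.05), for 3618 genes with a very broad cluster (red) and 2432 with a cluster of 10 to 49 bp and none very broad (blue); the dashed line marks 0.6. Both sets peak to the right of the line, and the blue one has the larger share of genes to the left of it.

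The share of CpG-rich promoters was higher in each wider class of genes up to the threshold and about level above it. Of genes whose widest cluster was 50 to 99 bp, 66.0% had a CpG-rich promoter; the share was 73.8% from 100 bp to the threshold, 77.8% (76.2 to 79.2) from there to under 200 bp, and 76.9% (73.5 to 79.9) at 200 bp and more. Turned round, 37.1% of genes with a CpG-rich promoter (2807 of 7558, 36.1 to 38.2) and 23.2% of the others (811 of 3502, 21.8 to 24.6) had a very broad cluster. Over all genes with a promoter, the median widest span was 128 bp where it was CpG-rich and 95 bp where it was not. Among very broad genes the medians were 182 and 183 bp. These cannot tell the kinds apart in width, because the threshold cut the spans from below. The widest members without a CpG-rich promoter were Birc3 (349 bp, ratio 0.516), Hebp2 (312 bp, 0.394), Atrx (292 bp, 0.583) and 2200002D01Rik (290 bp, 0.427). The tetraspanin relative Tm4sf1 (239 bp) had a ratio of 0.061.

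A TATA box was rare among genes with a very broad cluster, and about as rare where the widest cluster lay just below the threshold. TATAAA on the gene's strand, starting 20 to 40 bases before an annotated start, was found for 54 of 3618 very broad genes (1.49%, 1.15 to 1.94). It was found for 3.83% (3.25 to 4.51) of genes with a cluster of 10 to 49 bp, 4.89% (4.10 to 5.82) of those with none very broad, and 2.56% of all genes with a cluster and a promoter, beside 1.99% of all promoters in the table counted singly. Genes with a cluster of 50 to 99 bp had it in 1.87% (1.50 to 2.32), an interval that overlaps that of the very broad genes. By the gene's widest cluster, the share was 1.28% (0.944 to 1.73) from 100 bp to the threshold. It was 1.53% (1.14 to 2.04) from there to under 200 bp and 1.34% (0.704 to 2.52) at 200 bp and more. A low share was thus not particular to very broad genes. Of the 283 genes with such a TATAAA, 19.1% had a very broad cluster; it was 32.1% (27 of 84) where the promoter was CpG-rich too and 13.6% (27 of 199) where it was not. The 54 members included the antiproliferative gene Btg1 (242 bp), Abr (224 bp), the retinol carrier Rbp4 (218 bp), Kitl, the ligand of the Kit receptor of mast cells and melanocytes (217 bp), Cpa3 (208 bp), Atp6v1e1 (204 bp), Rnf10 (203 bp) and Krt71 (202 bp). The median span of these 54 was 183.5 bp, beside 182 bp over all members with a promoter, both cut from below by the threshold. Over all genes with a promoter, the median widest span was 65 bp with such a TATAAA and 119 bp without.

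**Figure D4:**
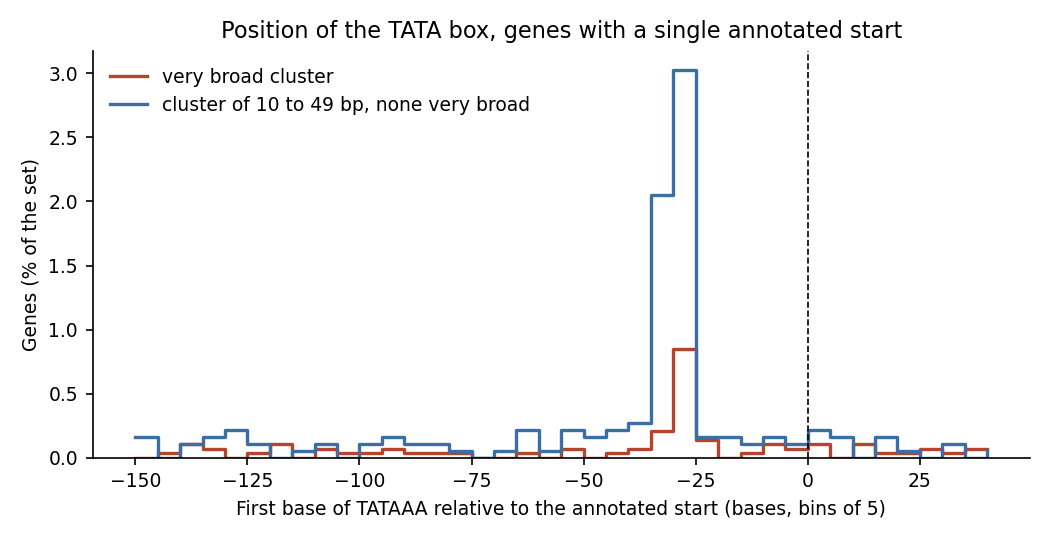
Share of genes with TATAAA (y axis, % of the set) by the position of its first base relative to the annotated start (x axis, bins of 5 bases), for genes with a single annotated start: 2826 with a very broad cluster (red) and 1852 with a cluster of 10 to 49 bp and none very broad (blue). Both have their peak in the bin that begins 30 bases before the start, at 0.849% in red and 3.02% in blue.

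Within a list, the promoters of very broad members are given beside those of its other genes. A CpG-rich promoter was found for 18 of 18 very broad splicing and RNA-binding genes and 33 of 37 others, for 16 of 18 and 35 of 50 oxidative phosphorylation genes, for 40 of 55 and 95 of 176 Zfp genes, and for 5 of 7 and 9 of 12 NF-kB pathway genes. In the cornified layer it was 0 of 8 very broad genes (median ratio 0.154) and 1 of 20 others (0.165). A TATAAA in the window was found for 0 of 2 very broad keratin-associated genes and 27 of 41 others. In the cornified layer it was found for 1 of 8 very broad genes and 8 of 20 others. The very broad genes were too few to compare. Only lists in which at least 80% of the genes of both kinds had a promoter in the table are given.

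Along with TATAAA, 5 further motifs were searched in the 300 bases on both strands. The GC box GGGCGG, which SP and KLF factors bind, was found for 73.9% of very broad genes, against 63.0% of genes with a cluster of 10 to 49 bp and none very broad and 35.7% of all promoters in the table. The ETS core CCGGAAG was found for 18.7% against 16.6%, beside 8.86% of the table. The CCAAT box, searched as CCAAT, was found for 42.2% (1528 of 3618) against 974 of 2432, beside 37.4% of the table. The E-box CACGTG was found for 11.7% of both, beside 7.15% of the table, and the AP-1 motif TGANTCA for 7.21% against 7.81%, beside 7.81% of the table. Over all genes with a cluster and a promoter, the GC box was found for 66.3% and the ETS core for 18.2%. CCAAT was found for 42.5% of them, the E-box for 11.4% and the AP-1 motif for 7.06%. The intervals of very broad genes held each of these shares except that of the GC box. A gene with several promoters counted once if any held the motif, whereas the promoters of the table were counted singly. The GC box, the ETS core and the E-box each contain CpG, so their counts share letters with the CpG measure.

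Within their genes, very broad clusters more often stood alone or first. Taking each pair of cluster and gene on the same strand, 31.4% of very broad clusters (1546 of 4929, 30.1 to 32.7) were the gene's only cluster, against 13.8% (13.0 to 14.6) of those of 10 to 49 bp. Where the gene had others, the very broad cluster lay most 5′ in 39.0% (37.4 to 40.7), against 22.2% (21.2 to 23.3). Of all other clusters of these genes, 60.4% lay downstream of the very broad one, against 48.9% downstream of a narrower one. The median number of clusters per gene was 2 for genes with a very broad cluster and 4 for those with a cluster of 10 to 49 bp, so a narrow cluster had more neighbours to be compared with. A further cluster of the gene began within 100 bp downstream of 29.8% of very broad clusters and lay within 100 bp upstream of 24.97%, against 34.4% and 34.7% for clusters of 10 to 49 bp. Counting only clusters of 10 bp or more, the shares were 8.89% and 6.78%, against 16.4% and 17.9%.

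At least 2 very broad clusters were given to each of 178 genes, 8 of which had 3 or more (Ablim1, Cald1, Etl4, Ndel1, Rere, Tacc2, Tnfaip8 and Zmiz1). The median gap was 6013.5 bp between the first and second; 77 were over 10000 bp apart and 54 within 1000 bp. The longest gap, 2099250 bp, was in Dmd, the dystrophin gene, a gene known for alternative promoters. Other pairs lay close together. Beta-actin (Actb) had clusters of 180 and 168 bp with 136 bp between them, Serbp1 had 193 and 158 bp with 130 bp between, and the prothymosin gene Ptma 188 and 194 bp with 141 bp between. Gata3, a transcription factor of skin and T cells, had 178 and 188 bp with 435 bp between, and Bcl11b 215 and 209 bp with 266 bp between. The symbols U6 and SNORA32, which name many copies, were found on different chromosomes and are not single genes.

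How near opposite-strand starts lay upstream depended on where the distance was measured from. Within 1000 bp upstream the shares with such a neighbour differed little, at 26.1% (24.9 to 27.4) and 24.95% (23.96 to 25.97). Within 200 bp they were 20.3% (980 of 4831, 19.2 to 21.4) and 11.8% (843 of 7134, 11.1 to 12.6). Over all named clusters the shares were 26.8% within 1000 bp and 14.3% within 200 bp. The median gap, among clusters with a neighbour within 1000 bp, was 86 bp for very broad clusters and 220.5 bp for those of 10 to 49 bp. Neighbours without a gene symbol were found within 200 bp of 10.5% and 4.43%, and neighbours of another gene for 9.81% and 7.39%. Over all named clusters, 6.23% had a neighbour without a gene symbol within 200 bp and 8.08% one of another gene. Counting only clusters that were the most 5′ of their gene, the shares within 200 bp were 19.8% (18.4 to 21.3) and 15.1% (13.7 to 16.6). These gaps run between the facing edges of the clusters, so a greater span, which chose the members, shortens them by construction. Measured from the middle of the cluster, the shares within 200 bp were 15.2% (14.2 to 16.3) and 11.5% (10.7 to 12.2), and the median distances 177.5 and 234 bp. Measured from the downstream edge, the order within 200 bp turned round, at 3.35% and 11.1%.

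**Figure D5:**
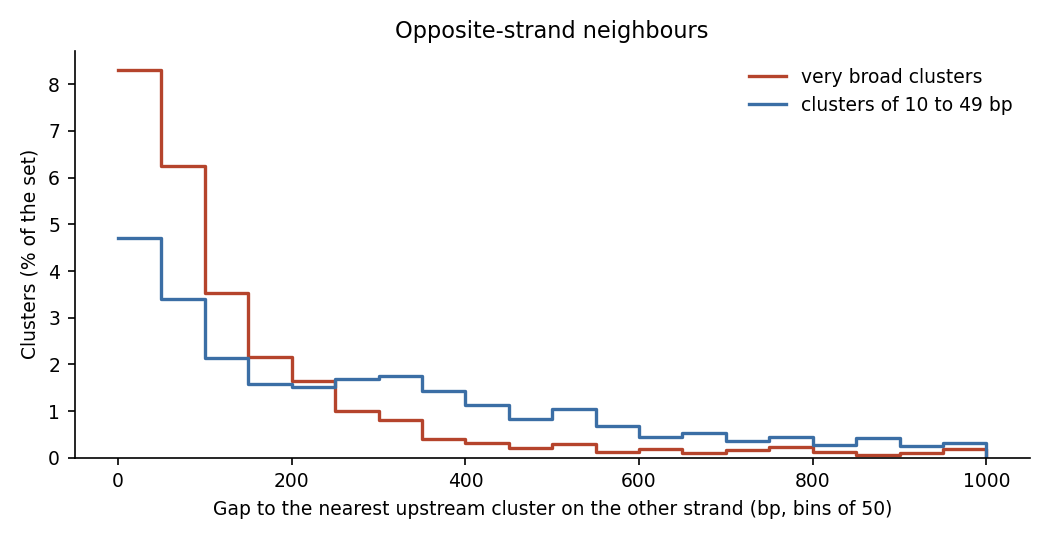
Share of clusters (y axis, % of the set) by the gap to the nearest upstream cluster on the other strand (x axis, bins of 50 bp up to 1000 bp), for 4831 very broad clusters (red) and 7134 of 10 to 49 bp (blue). In the first bin the shares are 8.30% and 4.71%; gaps run from the upstream edge, which lies farther out in wider clusters.

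Both partners were very broad in 31 head-to-head pairs (62 clusters, 1.28% of the members), with a median gap of 84 bp. In the pair with the greatest summed span, Zfp142 (260 bp, a cluster that also carries the symbol AC117610.1) faced the mitochondrial chaperone Bcs1l (166 bp) across 13 bp. Atg13 of autophagy initiation (231 bp) faced Harbi1 (191 bp) across 228 bp, and Tbccd1 (219 bp) faced the chaperone Dnajb11 (186 bp) across 93 bp. Trak2 (199 bp) and Stradb (192 bp) were 8 bp apart on chromosome 1 (59030160 to 59030359 and 59030367 to 59030559). Very broad clusters lay on both strands alike, 50.2% on the plus strand, and made up between 8.37% of the named clusters of chromosome 7 and 12.5% of those of chromosome 10; of 7 on the Y chromosome none was very broad.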

How the data were processed

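CAGE libraries of 8 mouse facial skins were made with a DNAFORM kit from column-purified total RNA, per the labels' protocols. The submitters' processing notes name BWA, HISAT2 and the build mm9; tool versions and the way start sites were grouped are not stated in those sources. The authors deposited 1 table of clusters, with position, strand and gene symbol. Its 8 columns of values have names that match no sample label and were not used in any step. The planned tests of level, evenness and genotype were not run. Coordinates are as the table gives them.

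A cluster's span was its end minus its start. Repeated clusters were counted once. Symbols were matched to RefSeq by current and older symbol (4645 of 4743 genes with a very broad cluster). Promoters came from RefSeq tables of GRCm38.p6 and were matched by symbol only. Because without restriction 77.4% of these genes had a promoter, below the 80% set as the least, the check was limited, after seeing the data, to protein-coding genes on chromosomes that the table covers. A gene with several promoters took the mean CpG ratio and counted as CpG-rich or TATA-bearing if any promoter was. Shares carry 95% Wilson intervals (SciPy 1.17.1, pandas 2.3.3, Python 3.11.15), and no test was made because no replicate values were used. The motif and neighbour searches were tested on simulated data.

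Genes named were Ikbkb and Nes, the 20 widest, those at the threshold, up to 6 per list in order of span, genes with at least 2 very broad clusters, up to 10 outside the protein-coding class, and the widest members with a single promoter from 6 lists; others, including the narrow examples, were chosen after their values were seen. Some genes that the rule names are not reported here. The members and lists were chosen with earlier results of these data known. From the lists, 6 symbols that their patterns had caught but that belong to other families were removed. Of the members' symbols, 7 were written as dates and were left as written.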

Additional observations from a re-analysis of the deposited data

How the results depend on the processing

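With a threshold of 120 bp there were 7495 named clusters and with 200 bp 888, in place of 4831. The share of all genes then became 44.5% and 5.62%, and of housekeeping genes 57.4% and 6.55%; these thresholds for the lists were added after seeing the data. With current symbols only, protein-coding genes made up 86.6% of very broad genes and 77.3% of the comparison, and against clusters of 50 to 99 bp the comparison was 89.9%. CpG-rich promoters made up 74.1% of very broad genes with a single cluster and, for genes with 1 promoter in the table, 76.2% against 65.5%; in comparison genes with no very broad cluster they made up 63.4%. The comparison share for TATAAA was 1.87% with clusters of 50 to 99 bp, whose interval (1.50 to 2.32) overlaps that of very broad genes, and 4.89% with genes that had no very broad cluster. Counting other clusters of at least 10 bp only, 45.5% of very broad and 28.2% of narrower clusters lay most 5′. Opposite-strand neighbours were found for 24.1% and 18.3% within 400 bp, 20.3% and 11.8% within 200 bp, and 23.6% and 19.3% within 1000 bp of the most 5′ clusters. Measured from the cluster's middle they were found for 15.2% and 11.5% within 200 bp, a setting added after seeing the data. From the downstream edge the order within 200 bp turned round by construction (3.35% and 11.1%), but not within 400 bp (20.8% and 17.5%). For the gap, the span itself enters the distance; for the others the cause was not tested. In the settings run for both sets the very broad share lay on the same side of the comparison as in the report. The exception was the gap within 200 bp from the downstream edge. For TATAAA against 50 to 99 bp the intervals overlap, and for single-cluster genes no comparison was run. Comparison genes whose widest cluster was 10 to 49 bp (79.8% with a promoter) and those with a single cluster (78.8%) fell short of 80%, so those checks are void. The shares given for the former beside the narrow examples are a description only. Genes with 1 promoter, comparison genes without a very broad cluster and the most 5′ clusters were settings added after seeing the data. Alternatives for level, evenness and lesional against control skin were left out with those results. No paired analysis was possible because no value column was matched with a sample.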
